A study of Mus musculus with 4 samples.

Results

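A set of genes of fibroblast growth factor (FGF) signaling were followed in sorted cells of the newborn mouse retina: the ligand Fgf15, the receptors Fgfr1, Fgfr2 and Fgfr3, the feedback inhibitors Spry1, Spry2, Spry4 and Dusp6, and the ETS transcription factors Etv4 and Etv5. They were picked by symbol, and they are 10 of the 21834 genes left once small RNAs were set aside. The retinas came from pHes1-EGFP mice at postnatal day 1 (P1) and day 4 (P4), labelled as strain FVB/N and untreated. Cells were sorted into EGFP-positive cells (pHes1_EPC) and EGFP-negative cells (pHes1_ENC), and total RNA of each fraction at each age gave 1 library, 4 in all. All 4 groups carry the same transgene, in which a fragment of the Hes1 promoter drives a destabilized EGFP, so the fractions differ by reporter activity and not by genotype. How many animals were pooled for a library is not given in the sources used here.

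Most secreted FGF ligands bind receptor tyrosine kinases together with heparan sulfate, and the activated receptor signals mainly through the RAS-ERK cascade. ERK signaling switches on the PEA3 group of ETS factors, to which Etv4 and Etv5 belong, and also genes for inhibitors that act back on the cascade, such as the sprouty proteins and the ERK phosphatase Dusp6. In the embryonic retina Fgf15 is a gene of proliferating progenitors, and FGF signaling takes part in the formation of the retina and in Müller glia biology. Hes1, whose promoter drives the reporter, is a Notch target that is active in progenitors and Müller glia.

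The sort was checked with marker genes. Levels are given in FPKM, the number of fragments of a gene scaled by its transcript length and by library size. Hes1 stood at an FPKM of 16.6 and 3.59 in the pHes1_ENC libraries of P1 and P4, and at 105 and 93.5 in the pHes1_EPC libraries. The summed FPKM of 10 Müller glia markers was 1572 in the P1 positive fraction against 500 in the negative one, and 2908 against 312 at P4. For 8 progenitor markers the sums were 2669 against 931 and 1909 against 448. The positive fraction therefore held transcripts of both kinds at both ages. Summed over 8 rod markers, the positive fraction had an FPKM of 43.4 at P1 and 774 at P4, against 702 and 4084 in the negative fraction. Vessel markers summed to 214 and 195 in the positive libraries and to 64.2 and 15.0 in the negative ones, most of it Kdr. Cldn5 had an FPKM of 16.3 at P1 and 2.59 at P4 in the negative fraction, and 3.49 and 4.06 in the positive one. Pdgfrb reached at most 1.68, and Pecam1, Cdh5, Tie1, Tek and Rgs5 at most 0.144 in any library. Microglia markers summed to between 2.27 and 10.3, astrocyte markers to between 3.89 and 15.2, and pigment epithelium and ciliary body markers to between 1.85 and 23.5. The part of these cell types in the differences given here was not tested.

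As every group is a single library, the comparisons have no replicate check, no p-value is given, and the spread between animals is unknown. A difference is the log2(FPKM + 1) of one library minus that of the other, and it was called when it passed 1 in either direction, which is 2-fold on that scale. Each ratio of FPKM is followed by the range that the 95% intervals of Cufflinks leave for it, which covers counting error only. The FPKM of 9 of the 40 member values lay outside its own interval, and these belonged to Fgf15, Spry2, Dusp6 and Etv5. In a mixed population, fewer cells of a type and less RNA per cell cannot be told apart.

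The positive fraction had the higher level of 7 of the 10 genes by this call, and these same 7 were called at both ages: Fgf15, Fgfr1, Spry1, Spry4, Dusp6, Etv4 and Etv5. The share of 7 in 10 at each age stands beside 6.1% of all 21834 genes at P1, 9.85% at P4 and 4.61% at both ages. Among the 12945 genes that reached an FPKM of 1 in a library, the shares were 10.3%, 16.6% and 7.78%. The members were chosen with earlier results of these data known, so this comparison is descriptive only. No member was called lower, beside 6.79% of all genes and 11.5% of the expressed genes at P1 and 5.42% and 9.15% at P4. The median difference of the 10 genes was 1.55 at P1 and 2.103 at P4, against 0.02 and 0.15 for the expressed genes. At P1 the call lay between Spry1 at 1.15 and Spry2 at 0.98, and at P4 the called gene nearest to it was Dusp6 at 2.05 and the nearest uncalled gene was Fgfr3 at -0.59.

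**Figure D1:**
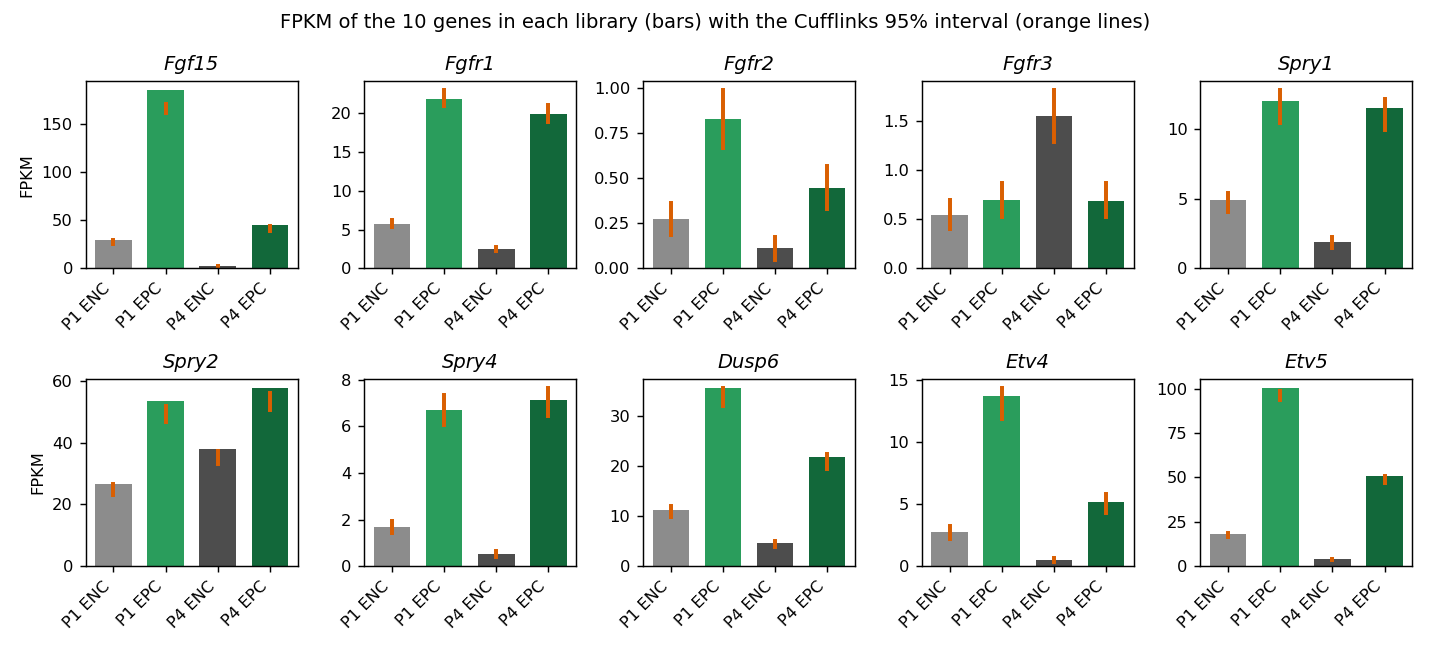
FPKM of the 10 genes in the 4 libraries, with negative and positive cells of P1 and then of P4 as bars from left to right and the Cufflinks 95% interval as an orange line, on an axis of its own for each gene. In 9 panels pHes1_EPC stands above pHes1_ENC at both ages, and for Fgfr3 the highest bar is P4 pHes1_ENC at 1.55.

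Of the 7 called genes, Spry1, Dusp6 and Etv5 have a start site in the RefSeq promoter table (build GRCm38.p6, 6 of the 10 members matched). Their 250 bases before the start are shown because these genes stood higher in the same fraction at both ages. Coordinates are of that build, and capitals mark matches to 4 letter patterns searched on both strands: CCGGAAG for ETS factors, TGANTCA for AP-1, TGGGAA for the Notch partner RBPJ, and CACGNG for Hes factors.
Spry1, chr3:37639697-37639946, plus strand: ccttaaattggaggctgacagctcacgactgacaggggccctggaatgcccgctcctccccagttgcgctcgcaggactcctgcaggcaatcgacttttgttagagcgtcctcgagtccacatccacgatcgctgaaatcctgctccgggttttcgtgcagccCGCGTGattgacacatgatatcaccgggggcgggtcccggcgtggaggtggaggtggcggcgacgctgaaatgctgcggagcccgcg
Dusp6, chr10:99262981-99263230, plus strand: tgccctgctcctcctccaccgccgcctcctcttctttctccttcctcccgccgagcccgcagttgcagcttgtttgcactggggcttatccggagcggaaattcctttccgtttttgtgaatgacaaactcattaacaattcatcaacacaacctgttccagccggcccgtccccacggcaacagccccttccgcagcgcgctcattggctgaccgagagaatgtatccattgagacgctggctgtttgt
Etv5, upstream start, chr16:22439571-22439820, minus strand: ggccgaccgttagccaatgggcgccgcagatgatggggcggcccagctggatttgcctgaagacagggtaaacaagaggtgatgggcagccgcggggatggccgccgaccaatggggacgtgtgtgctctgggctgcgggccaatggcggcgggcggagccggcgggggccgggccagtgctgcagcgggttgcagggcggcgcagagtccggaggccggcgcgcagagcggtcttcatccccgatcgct
Etv5, downstream start, chr16:22438369-22438618, minus strand: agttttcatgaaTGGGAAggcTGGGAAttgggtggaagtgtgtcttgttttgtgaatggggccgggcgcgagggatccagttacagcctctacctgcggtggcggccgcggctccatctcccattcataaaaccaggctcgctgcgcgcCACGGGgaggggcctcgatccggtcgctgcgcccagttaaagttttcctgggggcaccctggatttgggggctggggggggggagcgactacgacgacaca
Spry1 held 1 match to the Hes letters, on the minus strand. The window of the downstream Etv5 start held the RBPJ letters at -238 and again at -229, and the Hes letters at -101. Dusp6 and the upstream Etv5 start held none of the 4 patterns. Over the 32851 promoters of the same length, the ETS letters were in 6.91%, the AP-1 letters in 6.75%, the RBPJ letters in 21.6% and the Hes letters in 23.5%. A match is a run of letters and not a measured site, and a missing match says only that these letters are not in this window.

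Fgf15, the secreted ligand, lies on chr7:152082437-152086856 of mm9, the build of the files, and has 3 exons. Its FPKM in pHes1_EPC was 186 at P1 and 45.6 at P4, and in pHes1_ENC it was 29.8 and 2.28. It was the most abundant of the 10 genes at P1 and stood far higher in the positive fraction at both ages. At P1 the ratio of pHes1_EPC to pHes1_ENC was 6.23 (range 5.51 to 6.77), and at P4 it was 20.02 (range 14 to 26.0). The differences of 2.60 and 3.83 were the largest among the members. In the ranking of all 21834 genes by FPKM, Fgf15 stood at place 176 in P1 pHes1_EPC and at place 10208 in P4 pHes1_ENC. An antisense noncoding RNA, Gm17685, overlaps 478 of the 1809 exonic bases of Fgf15, and whether the counting used strand is not stated, so reads of the pair cannot be told apart.

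Fgfr1 had the highest level of the FGF receptor kinases in every library. The gene, with 18 exons on chr8:26629244-26686186, reached an FPKM of 21.9 at P1 and 19.9 at P4 in the positive fraction, and 5.75 and 2.50 in the negative fraction. Both positive libraries lay near 20, and the negative library was lower at P4 than at P1. The ratio between fractions was 3.80 (range 3.36 to 4.35) at P1 and 7.97 (range 6.74 to 9.55) at P4, with differences of 1.76 and 2.58. Of the summed FPKM of the 4 receptor kinases Fgfr1 to Fgfr4, Fgfr1 made up 90.2% in P1 pHes1_EPC and 87.7% in P4 pHes1_EPC, but 68.9% and 49.6% in the negative libraries of these ages. A noncoding transcript on the other strand, Gm16159, shares 125 of the 5226 exonic bases of Fgfr1.

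Fgfr2 and Fgfr3, which encode related receptor kinases, had an FPKM below 1 in every library except for Fgfr3 in P4 pHes1_ENC. Fgfr2 on chr7:137305965-137410322 had an FPKM of 0.828 at P1 and 0.447 at P4 in pHes1_EPC, against 0.274 and 0.110 in pHes1_ENC. It was higher in the positive fraction, at a ratio of 3.02 (range 1.83 to 5.39) at P1 and 4.05 (range 1.89 to 11.9) at P4, yet its differences of 0.52 and 0.38 on the log2(FPKM + 1) scale were not called because the levels were low. The interval of its P4 pHes1_ENC value reached 56.8% of the value to either side, the widest among the members. Fgfr3 on chr5:34064373-34079717 lay at 0.695 and 0.692 in pHes1_EPC at P1 and P4, and at 0.547 and 1.55 in pHes1_ENC. It was the member that did not stand higher in the positive fraction at P4. At P1 its intervals in the fractions overlapped (ratio 1.27, range 0.757 to 2.17), and at P4 pHes1_ENC was 2.24-fold higher than pHes1_EPC (range 1.48 to 3.50), with a difference of -0.59 that was not called.

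The sprouty genes encode cytoplasmic inhibitors of receptor tyrosine kinase signaling, and each has its coding sequence in a single exon. Spry2, on chr14:106291164-106296036, was the most abundant of them, with an FPKM of 53.6 and 57.8 in the positive libraries of P1 and P4 and of 26.6 and 38.0 in the negative libraries. Its ratio between fractions was 2.02 (range 1.75 to 2.26) at P1 and 1.52 (range 1.36 to 1.70) at P4, and the differences of 0.98 and 0.59 were not called. It was the one sprouty gene with a substantial level in the negative fraction at both ages.

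Spry1, on chr3:37538872-37543521, had an FPKM of 12.05 at P1 and 11.5 at P4 among positive cells, and of 4.88 and 1.87 among negative cells. Spry4, on chr18:38745919-38760922, had an FPKM of 6.72 and 7.13 among positive cells and of 1.68 and 0.501 among negative cells. Both were about equally high in the positive libraries of P1 and P4 and lower in the negative library of P4 than of P1. The ratio for Spry1 was 2.47 (range 1.92 to 3.16) at P1 and 6.14 (range 4.36 to 8.39) at P4, and that for Spry4 was 3.99 (range 3.11 to 5.19) and 14.2 (range 10.2 to 20.8). In P4 pHes1_ENC the FPKM of Spry2 was 20.3 times that of Spry1 and 75.8 times that of Spry4, whereas in P4 pHes1_EPC it was 5.03 and 8.11 times. At P1 the FPKM of Spry2 was 5.44 times that of Spry1 in pHes1_ENC and 4.45 times in pHes1_EPC. Against Spry4 it was 15.8 times in P1 pHes1_ENC and 7.98 times in P1 pHes1_EPC. By its share of the summed FPKM of the 4 sprouty genes, Spry2 set P4 pHes1_ENC apart. It made up 93.2% there and between 73.6% and 78.1% in the other libraries.

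Dusp6 encodes a cytoplasmic phosphatase that removes the activating phosphates of ERK, and it lies on chr10:98725865-98730123. Positive cells gave an FPKM of 35.6 at P1 and 21.8 at P4, against 11.2 and 4.51 in negative cells. Its level was higher in the positive fraction at both ages and lower at P4 in both fractions. The ratio between fractions was 3.18 (range 2.67 to 3.62) at P1 and 4.84 (range 3.84 to 5.87) at P4.

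Etv4 and Etv5 encode ETS factors of the PEA3 group. Etv5, with 14 exons on chr16:22381386-22439643, had an FPKM of 101 at P1 and 50.9 at P4 in pHes1_EPC, while pHes1_ENC gave 18.0 and 3.75. After Fgf15 it had the largest differences of the members, 2.42 at P1 and 3.45 at P4, with ratios of 5.60 (range 5.07 to 6.04) and 13.6 (range 11.1 to 15.7). Etv4, with 13 exons on chr11:101631056-101646624, had an FPKM of 13.8 at P1 and 5.20 at P4 in pHes1_EPC, and of 2.76 and 0.460 in pHes1_ENC. It followed the same order of libraries at a lower level. Its ratio was 4.98 (range 3.69 to 6.55) at P1 and 11.3 (range 6.91 to 20.2) at P4, and in each library the FPKM of Etv5 was between 6.51 and 9.80 times that of Etv4.

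**Figure D2:**
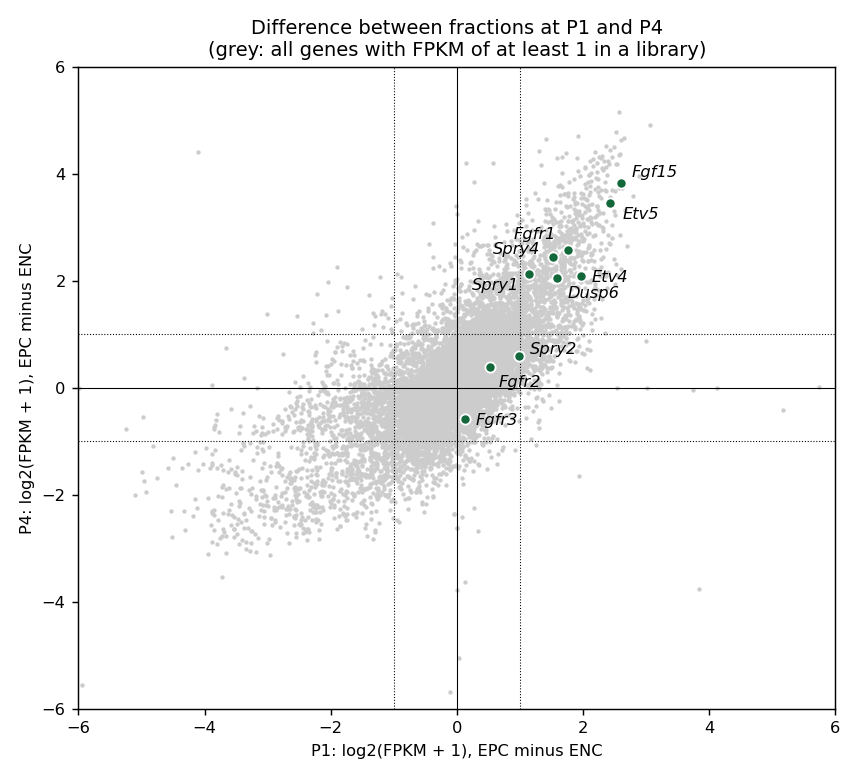
Difference between the fractions, log2(FPKM + 1) in pHes1_EPC minus pHes1_ENC, at P1 (horizontal axis) and P4 (vertical axis) for the 10 genes (green) and the 12945 expressed genes (grey, of which 6 lie outside the axes), with dotted lines at the call of 1. Fgf15 at 2.60 and 3.83 and Etv5 at 2.42 and 3.45 lie farthest to the upper right among the 10 genes, and Spry2, Fgfr2 and Fgfr3 lie inside the dotted lines at both ages.

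The difference between fractions was larger at P4 than at P1 for 7 of the 10 genes, beside 63% of the expressed genes. It grew by 1.23 for Fgf15, 1.03 for Etv5, 0.97 for Spry1, 0.91 for Spry4, 0.82 for Fgfr1, 0.47 for Dusp6 and 0.11 for Etv4. The growth of Etv4 turned to -0.03 with median-of-ratios scaling and to -0.28 with quantile scaling, which leaves 6 genes with growth. With equal totals the growth of Etv4 was 0.45, with a pseudocount of 0.1 it was 0.97, and with none it was 1.18. The difference was smaller at P4 for Spry2, Fgfr2 and Fgfr3, the genes that were not called, but for Fgfr2 this turned to a growth of 0.07 with a pseudocount of 0.1 and of 0.42 with none. The median growth over the expressed genes was 0.19. Both fraction comparisons and both age comparisons use the same 4 libraries, so these values are not independent of the age changes that follow.

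The second question of the design was how the genes changed from P1 to P4 within a fraction. In pHes1_EPC, Fgf15 and Etv4 were called lower at P4, 2 of 10 genes, beside 2.56% of all genes and 4.33% of the expressed genes, and 0 were called higher, beside 4.17% and 7.04%. Fgf15 had 0.245 times its P1 level (range 0.227 to 0.272) and Etv4 0.378 times (range 0.299 to 0.489). Etv5 was just outside the call at -0.97, with 0.506 times its P1 level (range 0.476 to 0.543), and Dusp6 had 0.614 times (range 0.547 to 0.697). With other scalings Etv5 passed the call, at -1.31 (equal totals), -1.15 (median of ratios) and -1.26 (quantile). Fgfr2, at its low level, had 0.540 times (range 0.331 to 0.850). The intervals of these 5 genes did not overlap between the ages. Other members were close to their P1 level: Fgfr1 had 0.912 times (range 0.822 to 1.01), Spry1 0.954 times (range 0.773 to 1.17), Spry2 1.08 times (range 0.973 to 1.20) and Spry4 1.06 times (range 0.874 to 1.27) its P1 level, and the intervals of these 4 overlapped between the ages. The small positive changes of Spry2 and Spry4 turned negative under other scalings, with lowest values of -0.22 and -0.24. Fgfr3 had 0.995 times its P1 level (range 0.597 to 1.66). Over the same days the summed FPKM of rod markers in this fraction went from 43.4 to 774. The sum of Müller glia markers went from 1572 to 2908, and that of pigment epithelium and ciliary body markers from 1.85 to 23.5. Progenitor markers (2669 to 1909) and ganglion cell markers (18.6 to 5.88) had lower sums at P4. The part of cell makeup in the changes of the members was not tested.

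In pHes1_ENC, 5 of 10 genes were called lower at P4, beside 5.94% of all genes and 10% of the expressed genes, and 0 were called higher, beside 2.77% and 4.67%. They were Fgf15, Etv4, Etv5, Spry1 and Dusp6, and the change of Spry1, at -1.03, was -0.71 and past the call no longer with quantile scaling. The level at P4 was 0.0764 times that at P1 for Fgf15 (range 0.0577 to 0.110), 0.167 times for Etv4 (range 0.0891 to 0.283) and 0.209 times for Etv5 (range 0.175 to 0.258). The ligand and the ETS factors were again the members with the largest decline. Spry1 had 0.383 times (range 0.267 to 0.559) and Dusp6 0.403 times (range 0.318 to 0.516) its P1 level, while Spry4 with 0.298 times (range 0.189 to 0.446) and Fgfr1 with 0.435 times (range 0.353 to 0.530) stayed outside the call at -0.84 and -0.95. Fgfr3 and Spry2 were the members with a higher level at P4, at 2.84 times (range 1.85 to 4.53) and 1.43 times (range 1.24 to 1.62). The summed FPKM of rod markers in this fraction went from 702 to 4084 over the same days, and that of red cell markers from 108 to 322. The sums of progenitor markers (931 to 448), Müller glia markers (500 to 312) and ganglion cell markers (27.7 to 7.25) were lower at P4, as were the amacrine genes Gad1 (16.2 to 1.17) and Gad2 (25.0 to 2.78), although the amacrine sum was 60.5 and 66.5. The part of these changes in cell makeup was not tested.

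**Figure D3:**
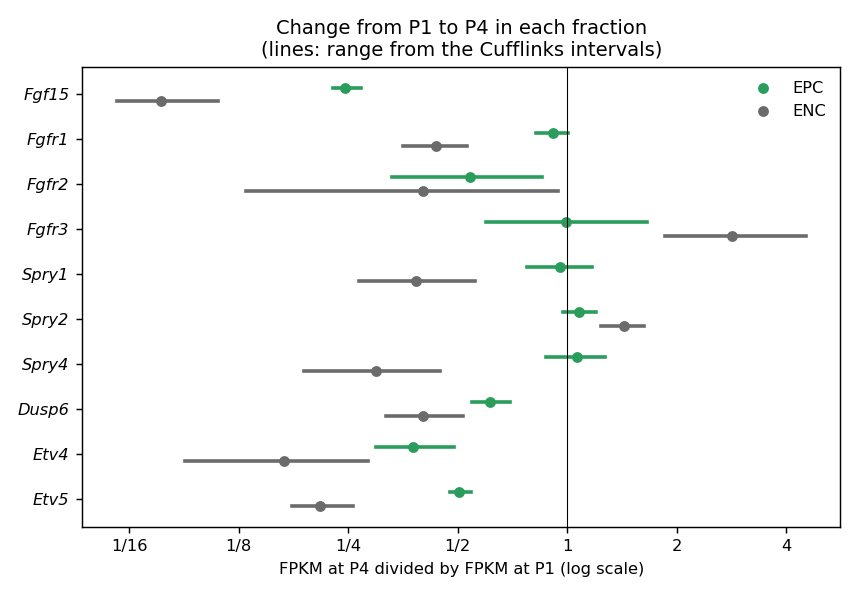
FPKM at P4 divided by FPKM at P1 on a log axis for the 10 genes in pHes1_EPC (green) and pHes1_ENC (grey), with lines for the range left by the Cufflinks intervals. In pHes1_EPC, Fgfr1, Spry1, Spry2 and Spry4 lie near 1 and Fgf15, Fgfr2, Etv4, Etv5 and Dusp6 below it, and in pHes1_ENC the 8 genes other than Fgfr3 and Spry2 lie below 1.

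How alike the members were to other genes was measured as the distance between profiles of log2(FPKM + 1) over the 4 libraries, each centred on its own mean, among genes that reached an FPKM of 5 in a library. Nearest to Fgf15 were Uhrf1 at a distance of 0.19 and Rrm2 at 0.45. Those nearest to Etv5 were Sfrp2 at 0.16 and Fam69c at 0.26, to Etv4 Nsl1 at 0.07 and Fam54a at 0.10, and to Dusp6 Sh2d3c at 0.06 and Ppp1r14c at 0.12. The genes nearest to Fgfr1 were Jub at 0.10 and Chst3 at 0.11. For Spry1 they were Parva and Sh3rf3, for Spry4 Bcl2l12 and Lsamp, for Spry2 Cadm1 and Dcps, and for Fgfr3 Qsox2 and Daxx. Among the members themselves the closest pair was Fgfr1 and Spry4 at 0.25, and 24 other genes were nearer to Fgfr1. With only 4 libraries behind each profile, these distances describe the libraries and carry no test.

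Genes around the 10 members were counted from lists of the pathway, 113 genes in 10 lists. Of all 113, 19 were called higher and 11 lower in pHes1_EPC at P1, and 33 higher and 9 lower at P4. Without the 10 members, the counts were 12 higher and 11 lower of 103 at P1 and 26 and 9 at P4. Counted over the 80 of these that were expressed, 15% were higher and 13.8% lower at P1, beside 10.3% and 11.5% of all expressed genes, and 32.5% and 11.2% at P4, beside 16.6% and 9.15%.

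Among the 18 genes for secreted FGF ligands, 5 were expressed, and Fgf9 joined Fgf15 as called higher at both ages. Fgf9, a secreted FGF that is also made by the early retina, had an FPKM of 25.1 at P1 and 26.1 at P4 in the positive fraction and of 8.44 and 3.64 in the negative fraction. Its level in the positive fraction was similar at both ages whereas Fgf15 fell, and the ratio of Fgf15 to Fgf9 in pHes1_EPC was 7.41 at P1 and 1.75 at P4. The FGF homologous factors, intracellular relatives that do not signal through FGF receptors, were split: of 4 genes, 3 were called lower at P1, and 1 was called lower and 1 higher at P4. Fgf11 was called lower at both ages with differences of -1.66 and -1.08, and Fgf13, picked out after its values were seen, was the gene called higher at P4, with differences of 0.21 and 1.55.

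The third member of the PEA3 group, Etv1, was also called higher at both ages, so that 3 of 3 were called. Its FPKM in positive cells was 10.6 at P1 and 10.2 at P4, and in negative cells 2.04 and 1.30. Unlike Etv4 and Etv5, its level in the positive fraction was nearly the same at P1 and P4, a change of -0.05. Of 9 other ETS genes, 2 were called higher at P1, and 3 higher and 1 lower at P4. Erf, an ETS repressor that ERK inactivates, was the one called at both ages, with differences of 1.78 and 1.03.

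Feedback inhibitors moved in both directions. Of 13 listed genes 11 were expressed, and 5 were called higher and 2 lower at P1, and 6 higher and 2 lower at P4. Besides Spry1, Spry4 and Dusp6, the sprouty-related inhibitors Spred1 (differences 1.27 and 1.42) and Spred2 (1.31 and 1.12) were called higher at both ages. Dusp5, a nuclear ERK phosphatase, was called lower at both ages, with an FPKM of 16.5 at P1 and 32.2 at P4 in negative cells and of 1.40 and 6.02 in positive cells. Of the 4 libraries, Dusp5 was highest in P4 pHes1_ENC, where Dusp6 was lowest.

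The cascade itself showed little difference between fractions. Of 18 genes for its adaptors and kinases, all expressed, none was called at P1 and 1 was called lower at P4, an adaptor named Frs3 that was picked out after its values were seen, at -1.06. The medians of the list were -0.11 and 0.00. Of the 7 FGF receptor and co-receptor genes, 4 were expressed, and Fgfr1 was the one called at both ages. The other gene called at P4, picked out after its values were seen, was Fgfrl1, a receptor without a kinase domain, at 1.33. The co-receptor genes Kl and Klb, also picked out after their values were seen, reached an FPKM of at most 0.0821 and 0.0595 in any library.

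**Figure D4:**
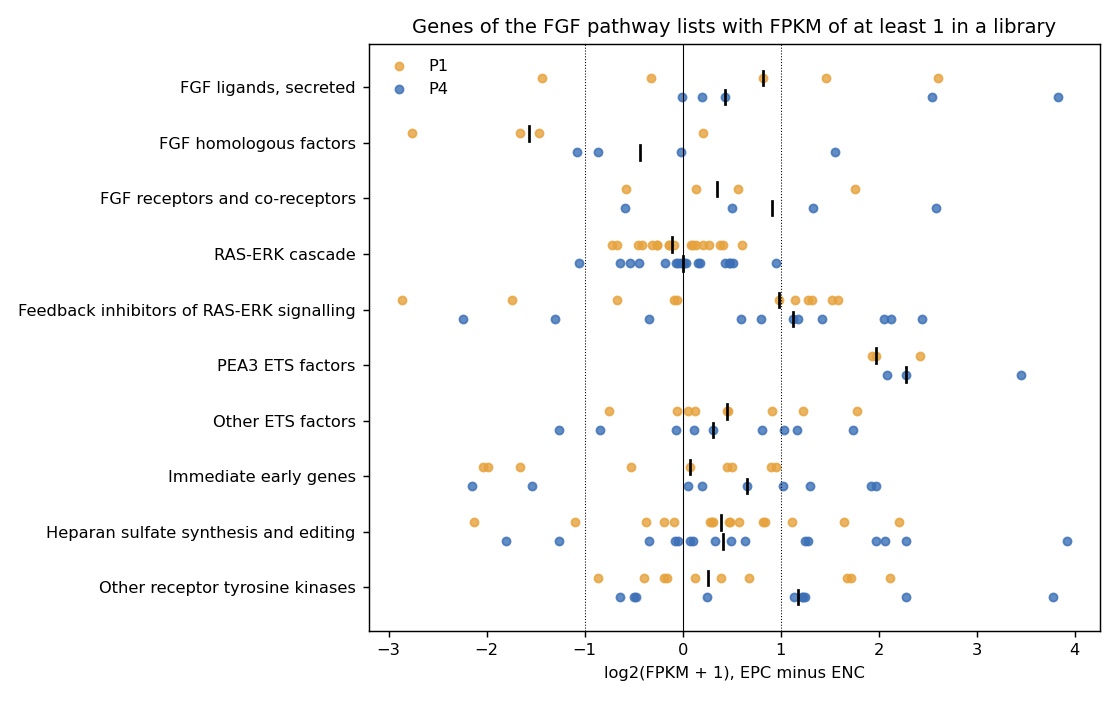
Difference between the fractions, log2(FPKM + 1) in pHes1_EPC minus pHes1_ENC, for each expressed gene of the 10 pathway lists at P1 (orange) and P4 (blue), with a black bar for the median of the list. The PEA3 factors have medians of 1.97 and 2.28 and the RAS-ERK cascade medians of -0.11 and 0.00.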

How the data were processed

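RNA-seq libraries of EGFP-positive and EGFP-negative retinal cells at P1 and P4, 1 for each group, were analyzed. The submitters' processing notes name bcl2fastq 1.8.4, TopHat2 2.0.8b and Cufflinks 2.1.1 with genome build mm9. The authors aligned short single-end reads, allowing multiple positions for a read, and deposited gene FPKM with a 95% interval and a status, which are scaled by transcript length and library size. The gene annotation they used is not given in the sources used here. Read counts and depth are unknown. The tables held 23021 gene lines. Small RNAs were left out by symbol (781 lines), and each of 235 symbols with several lines kept its line of highest FPKM, leaving 21834 genes. All 10 members had 1 line with status OK in every library. The FPKM of the genes kept summed to between 277449 (P1 pHes1_ENC) and 372032 (P4 pHes1_EPC). Values were compared as log2(FPKM + 1) with no further scaling, which understates changes of low genes, and Python 3.11.15 with numpy 2.4.6 and pandas 2.3.3 was used. The 2-fold call was tried on simulated counts, in which well expressed genes were raised past 2-fold with counting noise only, at an assumed depth. That trial does not cover rises of low genes, changes near 2-fold or the spread between animals. No test between groups was run, as each group has 1 library.

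All 10 members are named. From the pathway lists, those that reached an FPKM of 1 in any library and had a call in the same direction at both ages are named, and the others are counted or said to be picked after their values were seen. For each member, the 2 genes with the nearest profile are named, except that those of Fgfr2 are not reported here. The members and the lists were chosen with earlier results of these data known. Alternatives were a pseudocount of 0.1 or none, 3 other scalings, an FPKM minimum, status OK only, summed lines, and calls by intervals that do not overlap. Promoter windows came from RefSeq (GRCm38.p6), a build other than that of the files, and no coordinate was converted.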

Additional observations from a re-analysis of the deposited data

Results flagged for a closer look

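The values of Fgfr3 had opposite signs at P1 and P4. Its difference between the fractions, pHes1_EPC minus pHes1_ENC on the log2(FPKM + 1) scale, was 0.13 at P1 and -0.59 at P4. From P1 to P4, Fgfr3 changed by -0.0029 in pHes1_EPC and by 0.72 in pHes1_ENC. Spry4 changed by 0.075 in pHes1_EPC and by -0.84 in pHes1_ENC over the same days. With 1 library in each group, none of these differences between effects was tested, and the Cufflinks intervals overlap for the difference of Fgfr3 at P1 and for the changes of Fgfr3 and Spry4 in pHes1_EPC, so that these values have no clear direction.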

How the results depend on the processing

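The 7 members called higher in pHes1_EPC at both ages were past 2-fold under each of 8 other settings of the values. Status OK only, summed lines and the FPKM minimum left the values of these members unchanged. A smaller pseudocount or none can only widen a difference. Only equal totals, median-of-ratios and quantile scaling could therefore have ended a call, and under each of them all 7 stayed past 2-fold. With Fgfr2 and Spry2 added, the count went from 7 to 9 at P1 with a pseudocount of 0.1, with none and by intervals, and at P4 to 8 with either pseudocount, where Fgfr2 was added, and to 9 by intervals. The count of members lower in pHes1_EPC at P4 went from 0 to 1, which was Fgfr3, with a pseudocount of 0.1, with no pseudocount, with library totals made equal and with calls by intervals. Members lower at P4 than at P1 in pHes1_EPC went from 2 to 3 with median-of-ratios or quantile scaling, where Etv5 was added. They went to 4 with equal totals, where Etv5 and Dusp6 were added, and to 5 by intervals. In pHes1_ENC, members higher at P4 went from 0 to 1 with either pseudocount, equal totals or quantile scaling and to 2 by intervals, and members lower went from 5 to 8 with no pseudocount and by intervals, to 7 with a pseudocount of 0.1 and with equal totals, and to 4 with quantile scaling, where the call of Spry1 ended. For the 113 listed genes, the count higher at P1 went from 19 to 29 with a pseudocount of 0.1, to 32 with none and to 47 by intervals, and the count lower at P1 went from 11 to 24 with none and to 32 by intervals. At P4 the count higher went from 33 to 54 by intervals, and the count lower from 9 to 14 with a pseudocount of 0.1, to 16 with none and to 20 by intervals. Part of this follows from the construction, since a smaller pseudocount widens the differences of low genes and the interval rule has no minimum fold.

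Other scalings shifted the median difference of the expressed genes at P4 by -0.25 (equal totals), -0.17 (median of ratios) and -0.19 (quantile), the median change with age in pHes1_EPC by -0.29, -0.15 and -0.15, and that in pHes1_ENC by -0.13 with equal totals. Of all genes called at P4, 64.5% were higher in pHes1_EPC as deposited, and 48.1%, 53.1% and 49.8% under these scalings. For the age change in pHes1_EPC, 61.9% of calls were higher at P4 as deposited, and 33.8%, 44.1% and 44.3%. In pHes1_ENC the share was 31.8% as deposited, 23.3% with equal totals, 32.6% with median of ratios and 42.8% under quantile scaling. No paired analysis was possible because each group has 1 library and the labels give no replicate numbers, and for the same reason no library could be left out. Read depth is unknown, and the intervals of Cufflinks cover counting error only, with half-widths of 2.52% to 56.8% of the member values.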

Other observations

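Heparan sulfate genes and other receptor tyrosine kinases were counted beside the FGF genes. Over all expressed genes, 10.3% were called higher and 11.5% lower in pHes1_EPC at P1, and 16.6% and 9.15% at P4. Of 16 expressed heparan sulfate genes, 3 were called higher and 2 lower in pHes1_EPC at P1, and 6 higher and 2 lower at P4. Sulf1, an enzyme that removes sulfate groups from heparan sulfate outside the cell, had an FPKM of 11.1 at P1 and 37.4 at P4 in positive cells and of 1.62 and 1.53 in negative cells. It rose with age in the positive library while Fgf15 and Etv4 fell there. The core proteins Gpc4 (differences of 1.11 and 1.28) and Sdc1 (1.64 and 2.06) were called higher at both ages, and Sdc3 (-1.10 and -1.80) was called lower. Of 12 other receptor tyrosine kinases 10 were expressed, and 3 were called higher at P1 and 6 at P4, with none lower. Kit, the stem cell factor receptor, had differences of 2.11 and 3.77, Erbb2 of 1.68 and 2.28, and Met, the hepatocyte growth factor receptor, of 1.72 and 1.14.

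Immediate early genes, another readout of ERK activity, were called in both directions. Of 13 listed genes 9 were expressed, with 0 called higher and 3 lower in pHes1_EPC at P1, and 4 higher and 2 lower at P4. Among all expressed genes, 10.3% were higher and 11.5% lower at P1, and 16.6% and 9.15% at P4. Egr1 (0.08 and 1.30), Fos (0.96 and 1.92) and Myc (-0.52 and 1.02), picked out after their values were seen, were called higher at P4 only. Junb (-1.66 and -1.53) and Ier3 (-1.99 and -2.15) were called lower at both ages. Phlda1, picked out after its values were seen, had an FPKM of 1.55 at P1 and 9.26 at P4 in positive cells and of 9.46 and 1.62 in negative cells, so that its order reversed between the ages. Such genes also respond to the handling of cells, which was not tested.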
